A study of Mus musculus with 3 samples.

Results

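Apoe and its neighbours Apoc1, Apoc2 and Apoc4 encode the apolipoproteins of 1 gene cluster, and their 4 rows were followed among the 27998 rows of each count matrix. The members were chosen by gene identity, since Apoe is the gene that is deficient in the disease groups and the other 3 lie beside it. Apolipoprotein E is the ligand through which remnant lipoproteins are taken up by cell-surface receptors. Macrophages are among the cells that make it, and they release it with cholesterol. Apolipoprotein C2 is the activator of lipoprotein lipase, apolipoprotein C1 slows the receptor uptake of remnants, and apolipoprotein C4 is a minor protein of very low density lipoproteins. In macrophages the cluster is a known target of the liver X receptors (LXR), sterol-sensing nuclear receptors that act through distal enhancers shared by these genes.

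Single-cell RNA was counted in 3 libraries, 1 for each group, made from pooled suprarenal aortas. The control pool came from 5 chow-fed C57Bl/6 mice. A second pool, room air, came from 5 mice of the genotype C57Bl/6; ApoE-/- that breathed room air and ate a Western (high fat) diet for 16 weeks. The third pool, aneurysm, came from 4 mice of the same genotype and diet that were exposed to cigarette smoke for 16 weeks and had an aortic dilatation that could be measured. Room air therefore differed from control in genotype, diet and the lesions these bring, which cannot be told apart here, and aneurysm differed from room air in smoke and in the choice of mice with a dilatation. The labels give neither the animals' age nor which Apoe allele was used. Cells were sorted as CD45+CD31- and CD45-CD31+, so leukocytes and endothelial cells were both admitted. Cells of a further smoke group appear in the labels and were not analysed here. Each group is 1 pool, so no test between groups was possible. The intervals below are exact 95% intervals for counting error alone, and they do not cover differences between mice or between cells.

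The 4 genes lie on the minus strand of chromosome 7 in GRCm38 (mm10), in the order Apoe, Apoc1, Apoc4 and Apoc2 along the direction of transcription (GENCODE M21). Apoe (ENSMUSG00000002985) spans 19696109 to 19699188. Apoc1 (ENSMUSG00000040564) spans 19689481 to 19692660 and starts 6528 bases downstream of the Apoe start. Apoc4 (ENSMUSG00000074336) spans 19678083 to 19681479 and starts 17709 bases downstream. Apoc2 (ENSMUSG00000002992) spans 19671579 to 19677941 and starts 21247 bases downstream. The files list a second row under the name Apoc2 (ENSMUSG00000109350), which GENCODE M21 calls Gm44805, a transcript that runs from the first exon of Apoc4 through Apoc2.

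**Figure D1:**
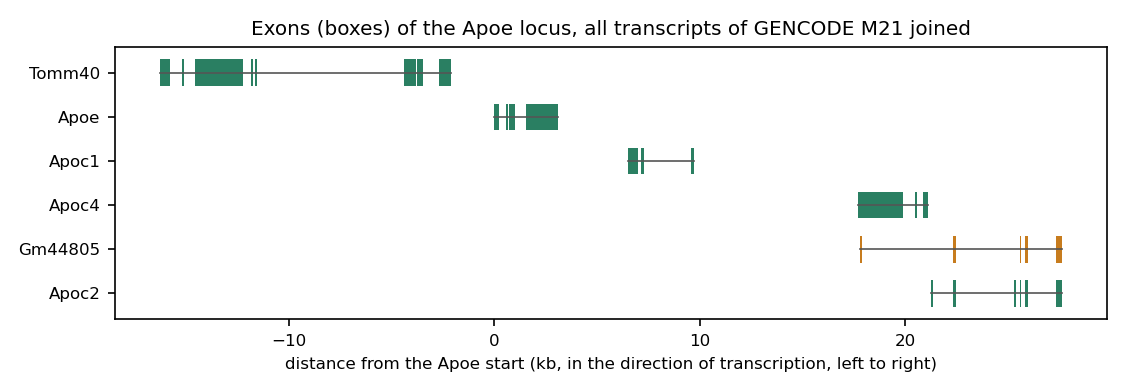
Exons (boxes) and spans (lines) of Tomm40, Apoe, Apoc1, Apoc4, Gm44805 and Apoc2, drawn to scale as distance in kb from the Apoe start in the direction of transcription. The exons of Gm44805 (orange) cover 79.5% of the exonic bases of Apoc2 and 4.69% of those of Apoc4.

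Because the 3' chemistry reads transcripts near their end, the last exon decides which row receives a read. Gm44805 shared 265 of the 270 bases of the last exon of Apoc2 (98.1%), 0 of the 230 bases of that of Apoc4 and 0 of the 156 bases of that of Apoc1. The shared stretch is shown by the coding part of the last Apoc2 exon, 85 bases at chr7:19671764-19671848 (minus strand, GRCm38, GENCODE M21), which the transcript of Gm44805 holds letter for letter.
Apoc2: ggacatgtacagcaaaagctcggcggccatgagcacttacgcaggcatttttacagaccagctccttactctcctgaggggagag
A read from this exon cannot be given to 1 of the 2 rows, so the Apoc2 counts are uncertain. Those of Apoc1 and Apoc4 are not touched by this overlap at the counted end.

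The promoters of Apoe, Apoc4 and Apoc2 are printed since their genes are compared below, each from 250 bases before to 50 bases after the start (RefSeq, GRCm38.p6, minus strand). The Apoe window is chr7:19699139-19699438, that of Apoc4 is chr7:19681411-19681710 and that of Apoc2 is chr7:19677892-19678191. RefSeq entries matched 3 of the 4 members, with 2 further Apoe starts that are not shown, and Apoc1 had no entry. Capitals mark the nuclear receptor half-site AGGTCA and the PU.1 core GAGGAA, each searched on both strands.
Apoe: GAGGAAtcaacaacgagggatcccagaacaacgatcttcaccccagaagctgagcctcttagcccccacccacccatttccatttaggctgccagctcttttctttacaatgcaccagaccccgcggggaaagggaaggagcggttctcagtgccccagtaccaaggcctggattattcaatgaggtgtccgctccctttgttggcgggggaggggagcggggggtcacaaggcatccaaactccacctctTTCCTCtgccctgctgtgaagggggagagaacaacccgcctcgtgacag
Apoc4: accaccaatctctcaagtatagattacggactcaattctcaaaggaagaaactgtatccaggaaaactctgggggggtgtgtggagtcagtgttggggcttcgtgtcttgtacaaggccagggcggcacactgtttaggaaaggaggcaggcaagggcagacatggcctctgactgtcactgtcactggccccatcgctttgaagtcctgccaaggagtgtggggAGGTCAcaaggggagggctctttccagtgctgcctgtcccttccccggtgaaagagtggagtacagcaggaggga
Apoc2: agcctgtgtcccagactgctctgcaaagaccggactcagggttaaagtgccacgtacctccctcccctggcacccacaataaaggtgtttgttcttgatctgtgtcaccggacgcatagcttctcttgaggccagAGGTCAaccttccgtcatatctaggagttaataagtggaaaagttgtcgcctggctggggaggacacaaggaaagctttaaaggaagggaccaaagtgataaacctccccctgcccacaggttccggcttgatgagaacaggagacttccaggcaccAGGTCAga
The half-site AGGTCA was found 25 bases before the Apoc4 start, and in Apoc2 115 bases before and 42 bases after the start. It is held by 16.3% of all 32851 promoters of this length. GAGGAA was found in the Apoe window 250 bases before and 1 base after the start, and 28.3% of all promoters hold it. The GC box GGGCGG was found 130 bases before the Apoc4 start (35.7% of all promoters), while neither TATAAA (13.6%) nor the E-box CANNTG (72.3%) occurred in these 3 windows. None of these matches overlapped another. A match describes letters and is not a site of binding.

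The matrices hold 782, 1851 and 2842 barcodes in control, room air and aneurysm, and 773, 1821 and 2775 passed as cells, with a median of 2681, 3835 and 4405 unique molecular identifiers (UMIs, counted RNA molecules) per cell. Cells were clustered without the 4 genes and without Gm44805, so that the classes do not depend on them, and classes were named from marker genes with the suffix -like. Levels are given as CPM, the UMIs of a gene scaled to 1000000 UMIs of its class in a library. In the same order 303, 566 and 664 of them were macrophage-like, with UMIs of 26, 28 and 28 of the 28 listed macrophage markers. Different clusters held them: cluster 8, led by Pf4, Ccl24 and Lyve1, held 279 of the 303 control cells but 13 in room air and 14 in aneurysm. Clusters 2 (Spp1, Gpnmb, Mmp12), 3 (Ccl12, C1qb, C1qa) and 9 (Ccl8, Cd209f, Folr2) held the rest. Cluster 11 was led by the neutrophil genes S100a8, S100a9 and Retnlg but carried macrophage genes as well (below), and it is therefore called by its number. Cluster 16, the endothelial-like one, also had smooth muscle and matrix genes (Mgp, Eln, Bgn) among its leading genes. A barcode was found in 2 libraries 9 times.

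In control, Apoe was among the most abundant transcripts of the sorted aortic cells. Its 26739 UMIs were 1.05% of all UMIs of kept cells, which ranked it 5th of 13908 detected genes by UMIs. In macrophage-like cells it made up 1.97% of the UMIs and ranked 3rd of 12105 genes. These cells held 83.9% of all Apoe UMIs in control, while they held 44.8% of all UMIs. Every 1 of the 303 macrophage-like cells had an Apoe UMI, with a lowest count of 1, a median of 62 and a highest count of 244. As a share of a cell's own UMIs, Apoe ranged from 0.0416% to 8.51% with a median of 1.95%, and its coefficient of variation was 0.704. With each cell thinned to 1000 UMIs, 99.0% of them still had an Apoe UMI.

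By cluster, the control level fell into 3 tiers across classes. The tiers depend on this classing: with each cell classed from its own markers, cDC2-like cells had 4742.8 CPM (35 cells). Mast cell- or basophil-like cells then had 12920.4 CPM (17 cells) and plasmacytoid dendritic cell-like cells 17622.7 CPM (19 cells). Macrophage-like cells then had 20064.4 CPM and T cell-like cells 957.2 CPM. By cluster, macrophage-like cells stood alone at 19718.5 CPM (19461.2 to 19978.3). A second tier held monocyte-like cells at 6504.6 CPM (6134.7 to 6891.0), dividing cells at 6033.1 CPM (5664.8 to 6419.1), cluster 11 at 5982.5 CPM (5359.8 to 6657.6, 11 cells) and endothelial-like cells at 5627.8 CPM (5226.1 to 6052.2). The intervals of neighbours in this tier overlapped, so their order is not resolved. The dividing level does not describe a typical dividing cell. As a share of a cell's own UMIs, Apoe had a median of 0.124% and an upper quartile of 1.2% in dividing cells, beside a median of 0.602% in monocyte-like cells. Cluster 21, which was left unnamed and is led by Retnla, Lyz1 and Ear2, lay between at 2264.2 CPM. The third tier held cDC1-like cells, cross-presenting dendritic cells, at 1372.5 CPM, cDC2-like cells at 1018.7 CPM, B cell-like cells at 996.7 CPM, NK cell-like cells at 765.3 CPM, ILC2-like cells at 749.3 CPM and T cell-like cells at 715.3 CPM. The intervals of the NK cell-, ILC2- and T cell-like levels overlapped, as did those of the cDC2- and B cell-like levels. In cDC1-like cells 1 cell held 92 of the 189 Apoe UMIs, and in cDC2-like cells 1 held 36 of 80. Median shares of a cell's own UMIs were 0.0707% in cDC1-like, 0.064% in cDC2-like and 0.0787% in B cell-like cells. They were 0.0667% in NK cell-like, 0.0587% in ILC2-like and 0.0647% in T cell-like cells. The order within this tier is therefore not resolved.

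**Figure D2:**
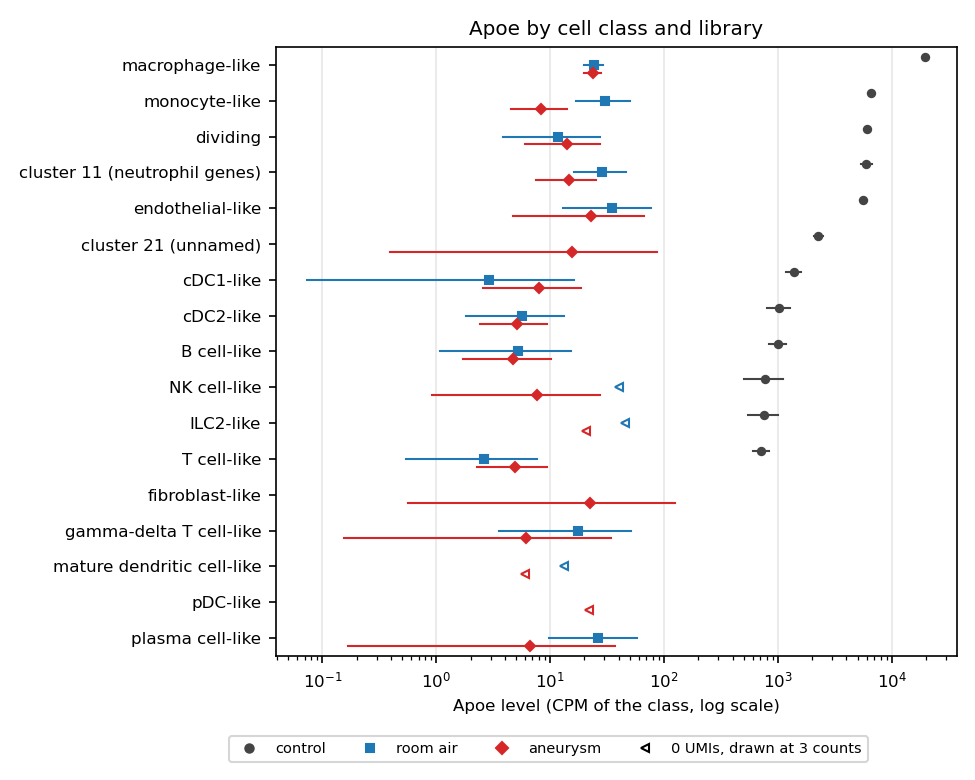
Apoe level in CPM (log axis) in each cell class with at least 10 cells in a library, as points with exact 95% counting intervals; open triangles mark 0 UMIs, drawn at the level of 3 counts. The control points lie between 715.3 and 19718.5 CPM, and those of the deficient libraries do not exceed 35.2 CPM.

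Free RNA from burst cells adds UMIs of abundant genes to every droplet. Per the labels, viability was 73% for the control pool, 91% for room air and 94% for aneurysm, and the part of this difference in the levels was not tested. An Apoe UMI was found in 77.8% of control T cell-like cells (median depth 1895 UMIs), a share of 58.6% after thinning to 1000 UMIs. Free RNA of macrophages keeps its genes in 1 ratio, so Apoe was set beside 12 macrophage genes, each as a percentage of its own macrophage-like level. All of the 12 except Sepp1 are also markers that named the macrophage-like class, and they were not left out of the clustering, as Apoe was. The classing may thus hold their percentages down in other classes, and its part in the gap to Apoe was not tested. In T cell-like cells Apoe stood at 3.63% and the 12 genes had a median of 2.01% (0.632% to 4.63%), so Apoe lay inside their range. In B cell-like cells it stood at 5.05% against a median of 2.82% (1.33% to 6.72%), again inside. In dividing cells it stood at 30.6% against 32.6%, and in cluster 21 at 11.5% against 11.8%.

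In monocyte-like and endothelial-like cells Apoe lay farther above the median of the 12 genes. In monocyte-like cells it stood at 33.0% of the macrophage-like level, while the 12 genes had a median of 3.15% and a highest value of 37.4%. Apoe was thus still inside their range, with 11 of the 12 genes below it, as in B cell-like cells. The highest gene was F13a1, the A subunit of coagulation factor XIII, which monocytes also express. In endothelial-like cells Apoe stood at 28.5% against a median of 2.57%, and all 12 genes were below it, the nearest being Sepp1 at 16.8%, which encodes the plasma selenoprotein P. The 20 control monocyte-like cells without a UMI of C1qa, C1qb or C1qc, the complement genes that mark macrophages, had Apoe at 8980.2 CPM (8161.5 to 9858.8), above the 5557.1 CPM (5156.6 to 5980.4) of the 38 with one. Endothelial-like cells differed in the opposite direction, with 4211.6 CPM (3368.7 to 5201.2) in the 8 cells without a C1q UMI and 5893.7 CPM (5446.2 to 6368.2) in the 38 with one. In both monocyte clusters the level was alike, with 6421.7 CPM in cluster 7 (Chil3, Hp, Plac8) and 6756.3 CPM in cluster 20 (Ear2, Pglyrp1, Treml4). Cluster 11 went the other way, with Apoe at 30.3% and a median of 65.5% for the 12 genes. All 12 lay above Apoe there.

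**Figure D3:**
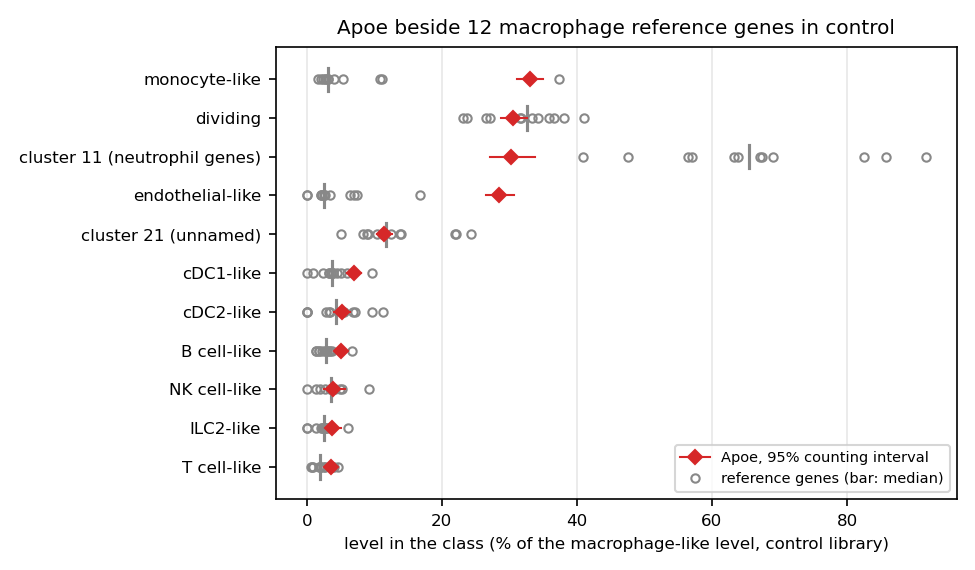
Level in each control class as a percentage of the macrophage-like level of the same library, for Apoe (diamonds, with 95% counting intervals) and 12 macrophage reference genes (circles, bar at their median). Apoe lies above the bar by most in monocyte-like (33.0% against 3.15%) and endothelial-like cells (28.5% against 2.57%), and below it in cluster 11 (30.3% against 65.5%).

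Among control macrophage-like clusters, cluster 8 had the highest Apoe level at 20556.2 CPM. Cluster 3 had 14218.4 CPM and cluster 9 had 12926.3 CPM. Cluster 2, led by Spp1 and Gpnmb, genes of lipid-laden macrophages, had 6268.2 CPM. Those 3 clusters held 11, 6 and 7 control cells, so these levels describe few cells.

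In the ApoE-/- libraries the Apoe row was nearly empty. Over all control cells Apoe had 26739 UMIs, beside 167 under room air and 210 in the aneurysm library, which were 10532.0, 17.1 and 13.03 CPM. Room air was thus 616-fold lower than control (ratio 0.00162, 0.00139 to 0.00189). In macrophage-like cells the levels were 19718.5, 24.3 and 23.8 CPM, and room air was 812-fold lower than control (ratio 0.00123, 0.00101 to 0.00149). Without cluster 8, the 24 remaining control macrophage-like cells had 12029.3 CPM against 22.4 CPM in room air, 536-fold lower. The groups did not overlap in any class: the lowest control level, 715.3 CPM in T cell-like cells, was above the highest deficient one, 35.2 CPM in endothelial-like cells of room air. How far the Apoe row checks the genotype depends on whether the allele removes the counted 3' end, which the labels do not say.

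The few remaining Apoe UMIs were spread thinly. In room air 129 of 1821 cells (7.08%) had an Apoe UMI and no cell had more than 4, and in aneurysm 164 of 2775 cells (5.91%) did, again with no more than 4 in a cell. After thinning to 1000 UMIs the shares were 1.37% and 0.613%. Among T cell-like cells 0.709% and 1.16% had one, before thinning. Of these 293 cells, 1 shared its barcode with a control cell. Macrophage-like cells held 62.3% of the remaining UMIs in room air and 65.2% in aneurysm, with 43.9% and 35.7% of all UMIs. Their level was 9.17 times that of T cell-like cells under room air (3.05 to 45.2) and 4.81 times in the aneurysm library (2.46 to 10.7), where control had 27.6 times (23.4 to 32.7). Under room air it was 0.7998 times the monocyte-like level (0.4632 to 1.48) and 0.8513 times that of cluster 11 (0.5003 to 1.544). Beside endothelial-like cells it was 0.6901 times (0.3065 to 1.923). These intervals hold 1, where control had 3.031, 3.296 and 3.504 times. The aneurysm ratios were 2.863 (1.649 to 5.376), 1.641 (0.9097 to 3.254) and 1.041 (0.3489 to 5.112). Above 1 under room air were the intervals for B cell-, cDC1- and cDC2-like cells (4.61, 8.425 and 4.299 times). Among macrophage-like clusters the highest remaining levels were in cluster 8, with 174.6 CPM (79.8 to 331.4, 9 UMIs in 13 cells) under room air and 73.7 CPM in the aneurysm library (23.9 to 172.1, 5 UMIs in 14 cells). Monocyte-like cells had 30.4 CPM under room air and 8.32 CPM in the aneurysm library, a ratio of 0.274 (0.123 to 0.609). This lower aneurysm level was seen in cluster 7, with 28.6 and 5.95 CPM (ratio 0.208, 0.0764 to 0.553), while cluster 20 had 36.7 and 29.3 CPM (0.798, 0.172 to 4.02). With each cell classed from its own markers, monocyte-like cells had 30.7 CPM (18.2 to 48.6) and 13.4 CPM (8.41 to 20.3), and these intervals overlap.

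The remaining Apoe was also set beside the 12 macrophage genes, each as a percentage of its macrophage-like level. In B cell-like cells it stood above all 12 in both libraries, at 21.7% under room air (3 UMIs, median of the 12 genes 11.9%) and at 19.6% in the aneurysm library (6 UMIs, median 3.72%). In T cell-like cells it stood at 10.9% beside a median of 11.5% under room air (3 UMIs), and in the aneurysm library at 20.8%, above all 12 genes (9 UMIs, median 4.36%). These percentages rest on few UMIs, and the level of the T cell-like cells in the aneurysm library, for example, has an interval of 2.27 to 9.41 CPM. Classes differed: cDC2-like and endothelial-like cells also stood above all 12 genes in both libraries. ILC2-like and mature dendritic cell-like cells had 0 Apoe UMIs in both. So had NK cell-like cells under room air and plasmacytoid dendritic cell-like cells in the aneurysm library. Each class with 0 held at most 83 cells in a library.

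Apoc4 was not detected in control and was present in the macrophages of both deficient libraries. Over all cells it had 0 control UMIs, beside 173 under room air (17.7 CPM) and 217 in the aneurysm library (13.5 CPM). A count of 0 in control allows up to 1.18 CPM (3 counts), so room air was at least 14.98-fold higher. In macrophage-like cells Apoc4 had 0, 137 and 170 UMIs, at 0, 32.0 and 29.6 CPM, and room air was at least 12.1-fold higher than control. In that comparison 13.3% of all 10686 measured genes (at least 10 UMIs over both libraries) were at least 2-fold higher and 7.17% at least 2-fold lower, with a median log2 ratio of 0.12. Of the 4 members, Apoc1 and Apoc4 were past 2-fold higher and Apoe past 2-fold lower. The Apoc4 difference rests on cluster 8, the main control population: the 24 control cells outside it held 111727 UMIs, 0 of Apoc4, which allows up to 26.9 CPM at 3 counts and 33.0 CPM at the upper 95% limit. Room air had 31.9 CPM (26.7 to 37.8) there, so no difference was resolved outside cluster 8. Within cluster 8 itself Apoc4 had 0 UMIs in 279 control cells, 2 in 13 room air cells and 1 in 14 aneurysm cells.

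Apoc4 was concentrated in particular macrophages. Macrophage-like cells held 79.2% of its UMIs in room air and 78.3% in aneurysm. Cluster 9, led by Ccl8, Cd209f and Folr2, had 76.7 CPM (57.8 to 99.8) under room air and 55.3 CPM in the aneurysm library (44.4 to 68.0). Cluster 3 had 41.0 and 36.8 CPM, and cluster 2, whose Spp1, Gpnmb and Trem2 are genes of lipid-laden macrophages, had 6.00 and 9.41 CPM. Cluster 9 exceeded cluster 2 by 12.8-fold under room air (6.62 to 27.1) and by 5.88-fold in the aneurysm library (3.71 to 9.65). Cluster 3 exceeded cluster 2 by 6.84-fold (3.60 to 14.3) and 3.92-fold (2.39 to 6.61), so the order of the 3 clusters was the same in both libraries. The UMIs came from a minority of cells: 66 of 566 macrophage-like cells in room air (11.7%) and 56 of 664 in aneurysm (8.43%) had one, against 0.946% and 0.165% of T cell-like cells (median depths 6360 and 7783 UMIs against 2499 and 2746). In all, 7 room air and 13 aneurysm cells had 5 or more Apoc4 UMIs, with up to 14 and 15. Counts clustered in cells in this way vary more than the counting intervals allow.

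**Figure D4:**
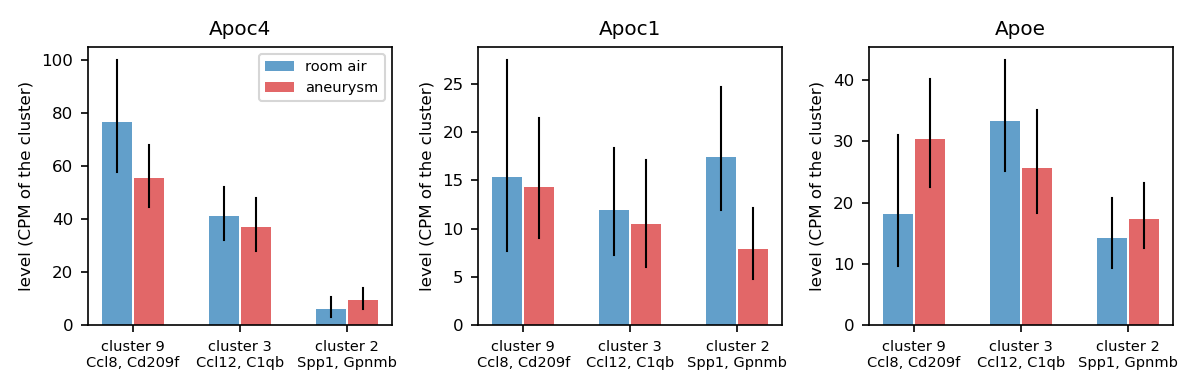
Levels in CPM of Apoc4, Apoc1 and Apoe in macrophage-like clusters 9, 3 and 2 of the room air (blue) and aneurysm (red) libraries; bars start at 0 and lines are 95% counting intervals. Apoc4 descends from cluster 9 (76.7 and 55.3 CPM) to cluster 2 (6.00 and 9.41 CPM), an order that Apoc1 does not show.

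Outside macrophages, Apoc4 was highest in cluster 11 and in plasma cell-like cells. Cluster 11 had 24.9 CPM under room air and 29.0 CPM in the aneurysm library, 78.0% and 98.2% of the macrophage-like level, beside medians of 108.6% and 88.2% for the 12 macrophage genes. Plasma cell-like cells had 17.7 CPM (4 UMIs) and 40.0 CPM (6 UMIs in 3 cells), beside medians of 35.6% and 20.8% for the 12 genes. The part that macrophage RNA had in either was not tested. Monocyte-like cells had 6.07 and 6.54 CPM, or 19.0% and 22.1% of the macrophage-like level, beside 15.4% and 16.7% for the macrophage genes. T cell-like cells had 3.53 and 0.55 CPM, and B cell-like cells 5.27 and 1.56 CPM. The 12 macrophage genes stood at a median of 11.5% in T cell-like cells of room air, 98.6% of which had a C1q UMI, and Apoc4 stood at 11% there. In the aneurysm library, where 77.7% of T cell-like cells had a C1q UMI, the median was 4.36% (3.35% to 8.89%) and Apoc4 stood below all 12 genes at 1.86%, from 1 UMI.

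Apoc1 was present in macrophage-like and monocyte-like cells at low levels. Over all cells it had 5 control UMIs, 81 under room air and 94 in the aneurysm library, at 1.97, 8.29 and 5.83 CPM. In macrophage-like cells it had 2, 63 and 59 UMIs, at 1.76, 14.7 and 10.3 CPM. Room air was 8.36-fold higher than control, with a wide interval (2.22 to 70.6) set by the 2 control UMIs, which lay in 1 cell. Without cluster 8 control had 0 Apoc1 UMIs, which allows up to 26.9 CPM, above the 14.9 CPM of room air, so no difference was detectable at that depth. A share of 5.30% of macrophage-like cells in room air and 4.82% in aneurysm had an Apoc1 UMI, against 0.709% and 0.33% of T cell-like cells. After thinning each cell to 1000 UMIs the shares were 1.06% and 0.904% against 0.236% and 0%. With cells classed from their own markers, room air T cell-like cells had 8.03 CPM (3.47 to 15.8), beside 14.2 CPM (9.49 to 20.3) in macrophage-like cells. In the aneurysm library these were 1.11 and 14.4 CPM.

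Unlike Apoc4, Apoc1 stood near its macrophage-like level in monocyte-like cells. Monocyte-like cells had 11.3 CPM in control (2 UMIs), 18.2 CPM (8.33 to 34.6) under room air and 15.5 CPM in the aneurysm library (10.1 to 22.6). These 2 deficient levels were 123.8% (54.1 to 250.4) and 150.6% (91.1 to 242.7) of the macrophage-like level, beside medians of 15.4% and 16.7% for the 12 macrophage genes. The 15 aneurysm monocyte-like cells without a C1q UMI held 5 Apoc1 UMIs (89.3 CPM, 29.0 to 208.4). All 26 Apoc1 UMIs of aneurysm monocyte-like cells lay in cluster 7, whose leading gene is Chil3, in 14 of its 200 cells and with up to 8 in a cell. Under room air both monocyte clusters had Apoc1, with 5 UMIs in cluster 7 (12.98 CPM, 4.22 to 30.3) and 4 in cluster 20 (36.7 CPM, 9.99 to 93.9), so the libraries did not share a pattern between the 2 clusters. Cluster 11 had 1 Apoc1 UMI in each deficient library, 12.1% and 11.8% of the macrophage-like level, where its macrophage genes stood at 108.6% and 88.2%. This low level depends on how cells were classed: with each cell classed from its own markers, neutrophil-like cells had 5 Apoc1 UMIs under room air (7.29 CPM, 2.37 to 17.0) and 12 in the aneurysm library (11.6 CPM, 5.99 to 20.3). Among macrophage-like clusters Apoc1 had no order: the ratio of cluster 9 to cluster 2 was 0.879 under room air (0.400 to 1.79) and 1.82 in the aneurysm library (0.957 to 3.498).

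**Figure D5:**
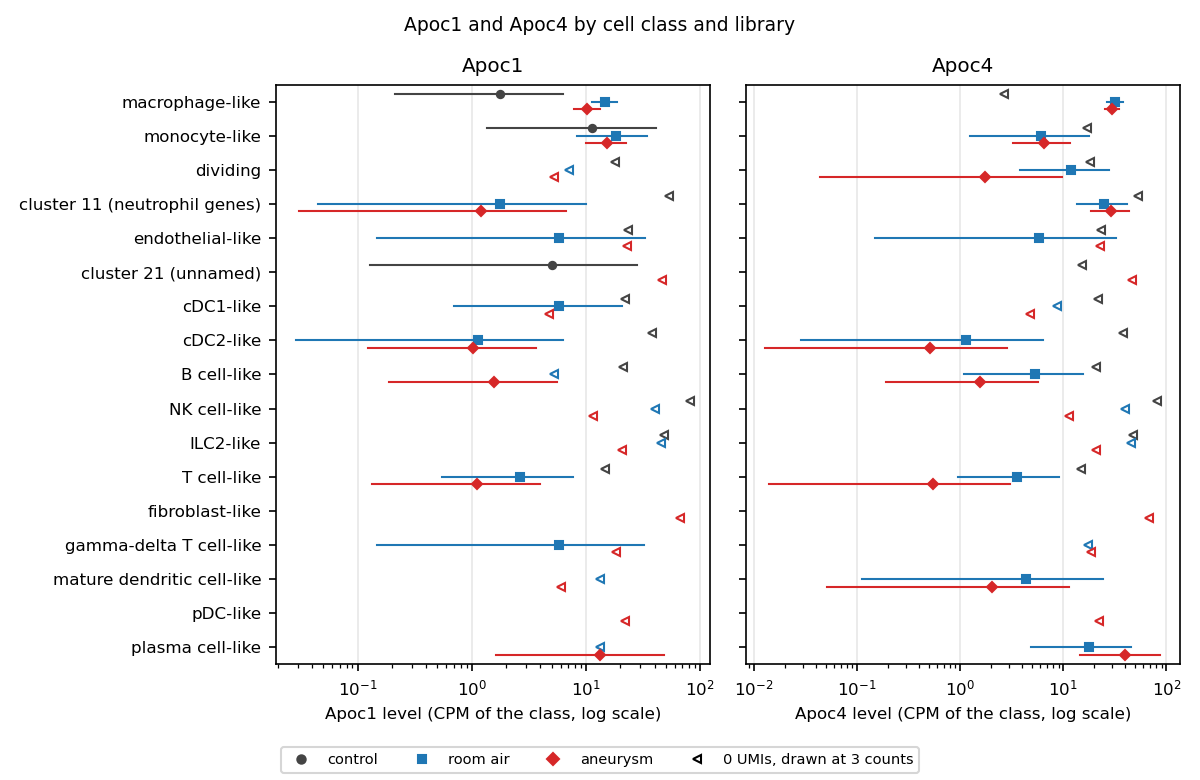
Apoc1 (left) and Apoc4 (right) levels in CPM (log axis) by cell class and library, with exact 95% counting intervals; open triangles mark 0 UMIs, drawn at the level of 3 counts. Monocyte-like cells reach 18.2 CPM of Apoc1 but 6.54 CPM of Apoc4 in the deficient libraries, while cluster 11 reaches 29.0 CPM of Apoc4 but 1.78 CPM of Apoc1.

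Apoc2 was barely detected. Its own row had 1 control UMI and 5 in each deficient library, and the row of Gm44805 had 0 in all 3. The 2 rows share 98.1% of the last Apoc2 exon, and a shared read cannot be given to 1 of them. The low counts therefore do not show how far Apoc2 was expressed. In macrophage-like cells Apoc2 had 0, 1 and 3 UMIs, so no ratio is given. The other UMIs lay in monocyte-like cells (1, 2 and 2) and, in room air, in B cell-like cells (2).

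Between the 2 deficient libraries the members differed little within macrophages. The aneurysm level was 0.982 times the room air level for Apoe (0.755 to 1.28), 0.925 times for Apoc4 (0.734 to 1.17) and 0.698 times for Apoc1 (0.481 to 1.01). Each interval holds 1, and 0 of the 3 passed 2-fold, where 1.58% of 11375 measured genes were at least 2-fold higher and 3.79% at least 2-fold lower. Within cluster 9 the Apoc4 ratio was 0.721 (0.509 to 1.03), within cluster 3 it was 0.898 (0.619 to 1.30) and within cluster 2 it was 1.57 (0.740 to 3.55). The Apoc1 ratio was 0.449 within cluster 2 (0.244 to 0.810), where 32 UMIs lay in 16 room air cells and 20 in 9 aneurysm cells, with up to 8 in a cell in each. It was 0.885 in cluster 3 and 0.931 in cluster 9. Over all cells the ratios were 0.763 for Apoe (0.619 to 0.940), 0.761 for Apoc4 (0.620 to 0.934) and 0.704 for Apoc1 (0.517 to 0.959). Macrophage-like cells made up 31.1% of room air and 23.9% of aneurysm cells, a proportion that moves with the all-cell values and whose part in them was not tested.

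The genes around the cluster were also counted. Of 26 listed neighbours 25 were in the files, 24 of them within 1 Mb of Apoe, and 20 were measured in macrophage-like cells, with 2 at least 2-fold higher and 3 lower in room air than in control (10% and 15%, beside 13.3% and 7.17% over all genes), and their median log2 ratio was 0.09. Tomm40, the mitochondrial import pore gene just upstream of Apoe, had 27.3, 53.9 and 63.8 CPM in control, room air and aneurysm. Clptm1, on the far side of Apoc2, had 62.4, 80.3 and 84.5 CPM. Vasp, an actin regulator, was 2.44-fold higher in room air (1.95 to 3.09). Blvrb, biliverdin reductase B, was 2.72-fold lower (2.46 to 3.02), and it lies outside the 1 Mb window. In aneurysm against room air 1 neighbour was at least 2-fold higher and 2 lower, all 3 with 19 or fewer UMIs in a library (5% and 10%, beside 1.58% and 3.79% over all genes).

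The receptors and partners of apolipoprotein E, the lipase system and the LXR pathway were counted from fixed lists in macrophage-like cells. Over all measured genes of this comparison 13.3% were at least 2-fold higher and 7.17% lower, with a median log2 ratio of 0.12. Of 21 measured receptors and partners 5 were at least 2-fold higher in room air and 3 lower (23.8% and 14.3%). Trem2, a myeloid receptor that binds apolipoprotein E, had 168.0 CPM in control and 547.1 CPM in room air, 3.26-fold higher (2.81 to 3.795). Sorl1, a sorting receptor, was 3.504-fold higher (1.85 to 7.48). Of 15 genes of lipases and lipid carriers 4 were higher and 1 lower (26.7% and 6.67%), with Fabp5, a fatty acid carrier, at 11.4 and 719.8 CPM (63.0-fold, 36.8 to 118.4). Cd36, the scavenger receptor, was 5.37-fold lower (4.73 to 6.10). Of 25 LXR pathway genes 9 were higher and 0 lower (36.0% and 0%), with a median log2 ratio of 0.84, led by the desaturase genes Scd2 and Scd1 and the cholesterol exporter Abcg1 at 15.8 and 168.5 CPM (10.7-fold, 6.69 to 18.1). Of the 17 listed transcription factors of Apoe 3 were higher and 1 lower (17.6% and 5.88%), among them Nr1h3, which encodes LXR alpha, at 6.16 and 29.4 CPM (4.78-fold, 2.25 to 12.1). The lists share genes, so their counts are not separate results. Nr1h3 and Pparg, both higher, are counted in the LXR list as well.

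These counts changed without cluster 8, where 24 control cells remained. The LXR list then had 4 genes higher and 6 lower, with a median log2 ratio of -0.13. Over all 10332 genes then measured the median was -0.28, with 10.6% higher and 29.9% lower. A gene with 0 control UMIs entered at the floor of 3 counts, 26.9 CPM here. It could thus be counted as lower though seen only in room air. This applied to Abca2, Abca7, Nr1d1 and Fasn, with 27, 29, 23 and 19 room air UMIs. The lower counts and the medians are therefore partly set by the floor. Abcg1 then had 44.8 CPM in control (5 UMIs) and 170.3 CPM in room air, and Nr1h3 had 0 UMIs and 29.8 CPM. Trem2 had 134.3 and 547.1 CPM, and Fabp5 had 8.95 CPM (1 UMI) and 727.6 CPM. The 12 macrophage reference genes were 8 lower and 1 higher with cluster 8, with a median log2 ratio of -2.21, and 1 lower and 0 higher without it. With cluster 8 kept, 2 of 7 measured other apolipoproteins were at least 2-fold higher under room air and 0 lower. The shares were 28.6% and 0%, beside 13.3% and 7.17% over all genes. These were Saa3, an acute-phase apolipoprotein, with 0 and 188 UMIs, and Clu, which encodes clusterin, 2.51-fold (1.42 to 4.85). Without cluster 8, 1 of 7 was higher and 1 lower. Saa3 then had 0 control UMIs and 43.7 CPM in room air, less than 2-fold above the floor of 26.9 CPM.

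Between aneurysm and room air, 0 of the 25 LXR genes and 0 of the 12 reference genes passed 2-fold. Clu was 6.35-fold lower (4.13 to 10.1), from 28.7 to 4.52 CPM, and Saa3 was 4.95-fold lower (3.61 to 6.88), from 43.9 to 8.87 CPM. Clu is among the leading genes of endothelial-like cluster 16 and Saa3 among those of fibroblast-like cluster 24. Within macrophage-like cells the summed levels in control, room air and aneurysm were 179.4, 359.0 and 255.5 CPM for 9 fibroblast markers, and 115.2, 127.4 and 112.7 CPM for 13 endothelial markers. The plasma cell markers had 147.7, 717.5 and 237.4 CPM. The part of other cells' RNA in the Clu and Saa3 values was not tested. Among receptors 0 of 22 were higher and 3 were lower, and among lipases and carriers 0 of 15 were higher and 3 lower, all 6 with at most 17 UMIs in a library. The shares lower were 13.6% and 20%, beside 3.79% over all genes, and 1.58% of all genes were higher.

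Genes whose level across classes was most like that of each member were ranked by Pearson correlation of log2(CPM + 10), as a description, since classes of a library share its free RNA and depth. The highest r values were picked from 4875 genes for Apoe, over only 9 classes, and from 10995 genes for Apoc4 and Apoc1. Over 9 control classes Apoe was most like Acp2, a lysosomal acid phosphatase (r = 0.964), Ly96, the partner of TLR4 (0.959), Itgb5, an integrin subunit (0.954), Tnfrsf1a, a TNF receptor (0.945), and Mef2a, a transcription factor (0.945). Over 37 pairs of class and library Apoc4 was most like Gdf3 (0.863), Slc37a2 (0.818), Cxcl13 (0.813), Syngr1 (0.805) and C6 (0.803). Apoc1 was most like F10, which encodes coagulation factor X (0.751), Lrp12 (0.732), Gm5150 (0.721), Cd177 (0.698) and C3 (0.685). Over the 28 such pairs of the deficient libraries r was 0.610 between Apoe and Apoc4, 0.493 between Apoe and Apoc1 and 0.407 between Apoc1 and Apoc4. Apoc2, with 11 UMIs, was too sparse to compare.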

How the data were processed

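The authors deposited counts, whole numbers of UMIs per gene and called cell barcode, with no normalization. Per the labels' protocols the libraries used the 10x Genomics Single Cell 3' v2 kit, and per the submitters' processing notes the tools were Cell Ranger and STAR, with the build mm10. Their versions are not given in the sources used here. Control held 2568192 UMIs, room air 9998517 and aneurysm 16698309.

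Barcodes with at least 200 genes and at most 10% mitochondrial UMIs were kept. The threshold that Scrublet set by itself caught 3 of 5465 cells and was dropped, so the highest-scoring cells up to the expected rate of 0.8% per 1000 cells were removed (5, 27 and 64). Counts were scaled to 10000 per cell, log-transformed and clustered without the 4 genes in scanpy 1.11.5 from 2000 variable genes, 30 principal components and 15 neighbours, with Leiden clustering at resolution 1 (24 clusters, no integration). A cluster took the class of its best marker score among 18 lists if 3 or more markers were seen in 10% or more of its cells. Members were matched by gene ID. UMIs were summed per class and library, with exact Poisson intervals for levels, exact conditional binomial intervals for ratios (scipy 1.17.1) and Clopper-Pearson intervals for shares. A count of 0 was set to a floor of 3 counts. The interval functions were checked on simulated Poisson counts. These lack the clustering of UMIs in cells seen here, so the check covers counting error alone.

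Named genes were the 4 members, up to 4 genes of each list and comparison with the largest change past 2-fold, the 5 genes most like each member and the 12 reference genes; Tomm40 and Clptm1 were chosen after their values were seen. Some genes of the receptor list are not reported here by name, though its counts include them. The members and lists were chosen with earlier results of these data known. The alternatives without cluster 8 or 9 and the split by C1q UMIs were added after seeing the data.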

Additional observations from a re-analysis of the deposited data

How the results depend on the processing

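Of 67 alternative values of the 7 ratios, 62 stayed within the counting interval of the reported one and 5 moved outside it. In log2, the Apoe ratio of room air to control in macrophage-like cells was -9.67 and became -9.07 without cluster 8. The lower bound for Apoc4 was 3.60 and became 3.24 at Leiden resolution 2, 3.18 with at least 500 genes and at most 5% mitochondrial UMIs, and 0.25 without cluster 8, where the upper 95% limit of control lay above the room air level. With a floor of 1 count it was 5.18. The Apoc1 ratio of aneurysm to room air was -0.52 and became 0.03 when each cell was classed from its own markers. The cause was not tested, apart from the control cells that leaving out cluster 8 removes. The Apoc1 ratio of room air to control was 3.06 and ranged from 2.70 to 3.81, and at Leiden resolution 2, with 0 control UMIs, a lower bound of 2.24 was left. Without cluster 8 it could not be given, since the control floor lay above the room air level. Lists counted at 1.5-fold or with at least 1 UMI changed counts but left the LXR list with 13 and 9 genes higher and 2 and 0 lower in room air. Over all genes, the counts at least 2-fold higher and lower were 1416 and 766 in room air against control, 1465 and 3358 with at least 1 UMI, and 2718 and 1652 at 1.5-fold. In aneurysm against room air they were 180 and 431, then 1098 and 1859, and 536 and 1032. Without cluster 8 the measured genes at least 2-fold lower in room air were 3088, beside 766 with it. A gene with 0 control UMIs entered at the floor of 3 counts, 26.9 CPM without cluster 8. Without cluster 8 or with at least 1 UMI, such a gene could be counted as lower though seen only in room air. With at least 1 UMI the same holds for 0 room air UMIs in the aneurysm comparison. Those lower counts are therefore not counts of decreases. Apoc2 in macrophage-like cells was at or under the floor in every library, so no ratio was given and its alternatives were not evaluated. No paired analysis was possible because each group is 1 library, which also left no replicate to leave out. The shallow control library, at 2568192 UMIs, sets the limit for Apoc1 and Apoc4.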

Other observations

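Among macrophage-like clusters of both deficient libraries, the remaining Apoe level was highest in cluster 8, which makes up most of the control macrophages (174.6 CPM under room air and 73.7 CPM in the aneurysm library, beside 24.3 and 23.8 CPM over all macrophage-like cells). These levels rest on 9 and 5 UMIs, and the aneurysm interval (23.9 to 172.1 CPM) overlaps that of cluster 9 (22.5 to 40.2 CPM). Apoc4, which had 0 control UMIs, was found at 5 or more UMIs in 7 room air cells and 13 aneurysm cells, while no deficient cell had 5 Apoe UMIs. Apoc1 was found at 5 or more UMIs in 5 cells of each deficient library.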
